A study of Homo sapiens with 10 samples.

Results

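Transcripts of 9 genes around the kinase complex mTORC1 were followed in MOLT-4, a line of human leukaemic T lymphoblasts, during treatment with MABL, an antibody against CD47. The 9 genes were DDIT4, TSC1, TSC2, RHEB, MTOR, SESN1, EIF4EBP1, EIF4EBP2 and TSC22D3, taken as every probe set that the platform annotation gives 1 of these symbols or an older alias such as FRAP1 for MTOR. They had 17 probe sets (sets of short oligonucleotides that read 1 transcript) of the 22283 on the array, which stood for 9 of 11963 named genes. DDIT4 was picked for its late rise in these same arrays, so its values are a description and carry no test. The 10 Affymetrix arrays held 2 replicates each of cells treated for 0 h, 0.5 h, 1 h, 3 h and 6 h. By the labels every sample carried 10 ug/mL MABL and, at 50 ug/mL, an agent the labels call only GAM, and the samples of 0 h carried both as well. All come from 1 cell line, cells kept untreated for the same times were not analysed here, and nothing says that replicates were separate cultures, so the p-values reflect array-to-array spread, which may be technical.

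DDIT4, also called REDD1, is a small cytosolic protein made under hypoxia, energy and nutrient stress, DNA damage and glucocorticoids. It restrains mTORC1 through the complex of TSC1 and TSC2, which makes the small GTPase RHEB hydrolyse its GTP. GTP-bound RHEB activates the kinase MTOR, and active mTORC1 phosphorylates the EIF4EBP proteins, which otherwise hold the cap-binding factor EIF4E and block translation. SESN1 is a stress-induced leucine sensor that also restrains mTORC1. TSC22D3, known as GILZ, is a glucocorticoid-induced leucine zipper protein named for the TSC22 domain, which is unrelated to the TSC1 and TSC2 proteins, so it is not a part of mTORC1 signalling as the other 8 are.

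The promoters of DDIT4, RHEB and EIF4EBP2 are shown, of which EIF4EBP2 moved little. The reason is that DDIT4 is known as a target of hypoxia-inducible factors, whose core motifs are ACGTG and GCGTG. RefSeq's promoter table for GRCh38.p14 held 8 of the 9 genes. Each sequence is the 250 bases before the annotated start, 5′ to 3′ on the gene's strand, and capitals mark either core motif on either strand. The DDIT4 window lies at chr10:72273674-72273923 (plus strand), that of RHEB at chr7:151519896-151520145 (minus strand) and that of EIF4EBP2 at chr10:70403895-70404144 (plus strand).
DDIT4: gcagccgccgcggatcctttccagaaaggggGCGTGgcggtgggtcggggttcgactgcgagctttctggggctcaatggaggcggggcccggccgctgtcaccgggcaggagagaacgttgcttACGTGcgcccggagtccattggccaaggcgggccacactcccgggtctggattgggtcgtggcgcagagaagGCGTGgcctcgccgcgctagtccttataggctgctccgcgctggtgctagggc
RHEB: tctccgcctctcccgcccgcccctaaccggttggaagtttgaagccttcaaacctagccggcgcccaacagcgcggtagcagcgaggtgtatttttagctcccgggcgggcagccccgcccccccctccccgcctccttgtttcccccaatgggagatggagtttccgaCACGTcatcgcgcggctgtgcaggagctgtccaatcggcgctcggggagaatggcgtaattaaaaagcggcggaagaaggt
EIF4EBP2: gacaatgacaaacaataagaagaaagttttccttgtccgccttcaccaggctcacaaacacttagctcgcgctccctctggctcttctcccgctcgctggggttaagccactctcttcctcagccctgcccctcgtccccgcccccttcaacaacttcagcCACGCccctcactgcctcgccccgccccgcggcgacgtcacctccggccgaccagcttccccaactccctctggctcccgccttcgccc

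The DDIT4 window held ACGTG once, from 125 to 121 bases before the start, and GCGTG at 219 to 215 and at 53 to 49 bases before it. RHEB, whose transcript moved the other way, also held ACGTG, read on the opposite strand from 81 to 77 bases before the start, where it overlaps a TGACG on that strand at 79 to 75. EIF4EBP2 held GCGTG on the opposite strand at 89 to 85 bases, and TGACG on that strand at 54 to 50. TGACG was held by 21.2% of the windows in the table and was not found in that of DDIT4. Among 35116 windows of the same length in the table, 18.5% held ACGTG on either strand, 32.2% held GCGTG and 43.2% held at least 1 of these 2 core motifs, so the letters are common. The box CCAAT, held by 32.0% of windows, was found at 2 places each in DDIT4 and RHEB and in none of EIF4EBP2. GGGCGG, an Sp1-type box held by 42.6% of windows, was found at 4 places in RHEB and 2 in EIF4EBP2 and at none in DDIT4. GC content was 68.8% in the DDIT4 window and 63.2% in each of the other two.

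Levels are square roots of the deposited scores read as log2, a reading of the data that the authors do not state, so all log2 changes and folds depend on it. Across probe sets, replicates correlated at 0.991 to 0.994 and 2 arrays from unlike times at 0.949 to 0.992. Of 22 T lymphoblast markers on the array, 16 passed the filter on low values (at least 2 of 10 arrays at level 5 or more), among them CD3D and LCK, while 0 of 8 myeloid and 0 of 5 erythroid or platelet markers did. IGHM was the 1 of 7 B cell markers that passed, and COL1A1 the 1 of 9 fibroblast and epithelial markers. The median level of tested probe sets differed from 0 h by -0.13 (0.5 h), -0.29 (1 h), -0.31 (3 h) and -0.25 (6 h). The mean of the 18S rRNA control probe sets was 9.03 ± 0.88 (0 h), 10.44 ± 0.34 (0.5 h), 10.68 ± 0.64 (1 h), 11.20 ± 0.65 (3 h) and 11.67 ± 0.49 (6 h; SD, n = 2), and the hybridisation spike-ins went from 10.00 ± 0.29 at 0 h up to 10.76 ± 0.034 at 3 h and 10.63 ± 0.032 at 6 h. Both moved with time, as DDIT4 and RHEB did.

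The filter passed 5 of the 17 probe sets, which covered DDIT4, RHEB, EIF4EBP1 and EIF4EBP2, while TSC1, TSC2, MTOR, SESN1 and TSC22D3 had none. Over the whole array 4276 of 22215 probe sets passed, or 19.2%. In bulk RNA, fewer cells of a type and less RNA per cell cannot be told apart.

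DDIT4 fell within the first 0.5 h, was back to 0.43 below its starting level by 1 h, and then climbed steeply to 3 h and 6 h. Its 1 probe set, 202887_s_at, read 6.88 and 6.90 at 0 h, 5.74 and 5.39 at 0.5 h, 6.60 and 6.32 at 1 h, 9.60 and 9.51 at 3 h, and 10.31 and 10.28 at 6 h. The 2 arrays of every later time lay wholly on one side of the 0 h arrays, below them at 0.5 h and 1 h and above them at 3 h and 6 h. How many of all tested probe sets were so separated is not given here. The mean was lower by 1.33 at 0.5 h, which is 2.51-fold, with 5.56 ± 0.25 against 6.89 ± 0.0099 at 0 h (SD, n = 2). At 1 h it stood at 6.46 ± 0.20, a change of -0.43 from 0 h. At 3 h the level was 9.56 ± 0.062, against 6.89 ± 0.0099 at 0 h, a change of 2.67 or 6.36-fold, and at 6 h it was 10.29 ± 0.022, a change of 3.40 or 10.6-fold. The SE of each change was 0.142 in a limma fit over all 10 arrays.

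**Figure D1:**
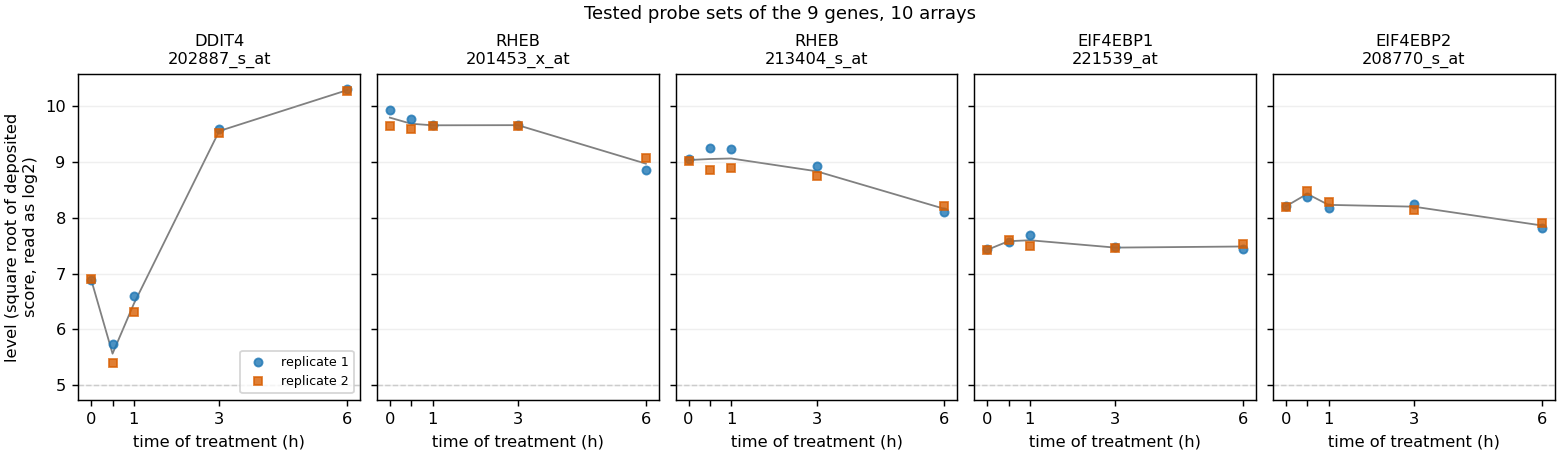
Levels (square root of the deposited score, read as log2) of the 5 tested probe sets of DDIT4, RHEB, EIF4EBP1 and EIF4EBP2 against time of treatment in hours. Circles are replicate 1, squares replicate 2, lines join the means, and the dashed line is the filter at 5; DDIT4 dips to 5.56 at 0.5 h and reaches 10.29 at 6 h, while both RHEB probe sets are lowest at 6 h.

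Most of the climb fell between 1 h and 3 h. DDIT4 changed by 0.90 between 1 h and 0.5 h, by 3.10 (8.57-fold) between 3 h and 1 h and by 0.73 (1.66-fold) between 6 h and 3 h. Among all 4276 tested probe sets its change ranked 1st from the highest at 3 h and 3rd at 6 h, whereas at 0.5 h it ranked 4115th. In level it stood above 48.8% of tested probe sets at 0 h, above 20.8% at 0.5 h and above 89.9% at 6 h, ranks that also carry each probe set's own binding strength. With all arrays set to the same median the changes from 0 h were -1.20 (0.5 h), -0.14 (1 h), 2.98 (3 h) and 3.65 (6 h), so the difference at 1 h was the one that shrank most, and all 4 kept their direction. The submitters' fold rule asks both replicates to lie above 2 or below 0.5 times the 0 h mean. Applied here to the levels read as log2, and not to the deposited scores, it was met downward at 0.5 h and upward at 3 h and 6 h. In the deposited scores the mean changes at 0.5 h and 3 h were under 2-fold, so meeting the rule there depends on that reading. Of all tested probe sets 5.99% met the rule on the same levels downward at 0.5 h, 0.304% upward at 3 h and 0.935% upward at 6 h. DDIT4 was picked for its late rise, so its high ranks and its meeting the rule upward follow from that choice.

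RHEB, the GTPase that turns mTORC1 on, fell at 6 h in both of its bright probe sets. The set 201453_x_at, whose probes may also bind related transcripts, read 9.94 and 9.66 at 0 h, 9.78 and 9.60 at 0.5 h, 9.67 and 9.65 at 1 h, 9.68 and 9.65 at 3 h, and 8.87 and 9.08 at 6 h. The set 213404_s_at read 9.05 and 9.02 at 0 h, 9.25 and 8.86 at 0.5 h, 9.24 and 8.89 at 1 h, 8.93 and 8.75 at 3 h, and 8.11 and 8.21 at 6 h. In both, the arrays of 6 h were below every array of the other times, but the share of all tested probe sets so separated is not given here. On the log2 scale 201453_x_at fell by 0.83 at 6 h relative to 0 h (1.77-fold, SE 0.131, 95% interval -1.13 to -0.53, limma adjusted p = 0.00419), and 213404_s_at fell by 0.88 (1.84-fold, SE 0.164, 95% interval -1.25 to -0.50, limma adjusted p = 0.00756). Compared with 3 h, the level at 6 h fell by 0.69 in 201453_x_at (limma adjusted p = 0.0205) and dropped by 0.67 in 213404_s_at (limma adjusted p = 0.0475). Of these 2 calls against 3 h, 0 were left without replicate 1 or 2 of 3 h or replicate 1 of 6 h, and 1 without either replicate of 0 h or 1 h or replicate 2 of 6 h.

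Both RHEB probe sets were called, at a Benjamini-Hochberg adjusted p under 0.05 over all tested probe sets, only at 6 h, and changes at the earlier times lay between -0.20 and 0.03. With equal array medians those earlier changes were all positive, from 0.02 to 0.32, and none was called. With equal array medians the falls at 6 h were smaller and still called, -0.58 for 201453_x_at (limma adjusted p = 0.00984) and -0.63 for 213404_s_at (limma adjusted p = 0.00816). Leaving out replicate 1 of 0 h took the call from 213404_s_at (limma adjusted p = 0.0523). With the 18S level as a covariate the changes were -0.43 and -0.78 (limma adjusted p = 0.595 and 0.532), and with the spike-in level -0.56 and -0.78 (limma adjusted p = 0.252 and 0.266), so neither was then called. Both covariates moved with time, so these fits cannot separate the control signals from time. The other 3 RHEB probe sets stayed below the filter, and the nearest to it, 213409_s_at, read 3.73 to 4.64.

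EIF4EBP1 and EIF4EBP2, the translation repressors that mTORC1 switches off by phosphorylation, moved little. EIF4EBP2 (208770_s_at) read 8.22 and 8.19 at 0 h, 8.37 and 8.49 at 0.5 h, 8.19 and 8.28 at 1 h, 8.25 and 8.15 at 3 h, and 7.82 and 7.91 at 6 h. Its arrays of 6 h were the lowest of the 10, but the share of all tested probe sets so separated is not given here. At 6 h EIF4EBP2 fell by 0.34 relative to 0 h (1.27-fold, SE 0.0993, limma adjusted p = 0.0372). Equal array medians took that call away (change -0.09, limma adjusted p = 0.589), as did leaving out any 1 of the 4 arrays compared (limma adjusted p = 0.0681 to 0.156). The fall of 0.34 at 6 h relative to 3 h did not pass (limma adjusted p = 0.0841).

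EIF4EBP1 (221539_at) read 7.44 and 7.41 at 0 h, 7.56 and 7.60 at 0.5 h, 7.69 and 7.50 at 1 h, 7.48 and 7.45 at 3 h, and 7.44 and 7.53 at 6 h. All 10 values lay within 0.28 of each other. Its changes from 0 h were 0.16 (0.5 h), 0.17 (1 h), 0.04 (3 h) and 0.06 (6 h), and none was called (95% interval at 6 h -0.17 to 0.29). With equal array medians it was called higher at 1 h (0.46, limma adjusted p = 0.0127) and at 3 h (0.35, limma adjusted p = 0.0434), the times at which the medians themselves were lowest. That setting called 32.5% (1 h) and 23.1% (3 h) of all tested probe sets higher. After quantile normalization again EIF4EBP1 was called higher also at 6 h (0.34, limma adjusted p = 0.0470).

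Of the 4 tested probe sets other than DDIT4, 0 were called at 0.5 h, 1 h and 3 h, also at an unadjusted p under 0.05, and 3 were called lower at 6 h. Among all tested probe sets limma called 17% (0.5 h), 28.4% (1 h), 28.9% (3 h) and 25.7% (6 h), with 21.6% lower at 6 h. Between successive times it called 0 of the 4 at 1 h against 0.5 h and at 3 h against 1 h, and 2 at 6 h against 3 h, where the shares over all tested probe sets were 0.0468%, 3.77% and 7.09% (2.08% lower at 6 h against 3 h). Neither of the first 2 steps gave a member an unadjusted p under 0.05.

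TSC1, TSC2, MTOR, SESN1 and TSC22D3 were dim throughout. TSC1, the scaffold of the TSC complex, read 4.20 to 4.59 over the 10 arrays, and TSC2, its GTPase-activating subunit, read 2.15 to 2.20 in 215624_at and 2.95 to 3.36 in 215735_s_at. The kinase MTOR itself read 2.45 to 3.12 in 202288_at and 2.34 to 2.37 in 215381_at. SESN1 read 2.41 to 2.44, and TSC22D3 read 2.38 to 2.44 in 207001_x_at and 2.03 to 2.07 in 208763_s_at. The second EIF4EBP2 probe set, 208769_at, read 2.14 to 2.23. Across the 12 probe sets below the filter, readings ran from 2.03 to 4.64, and the largest difference of a time mean from 0 h was 0.38, in MTOR at 1 h, which rests on 1 array at 2.45. No background level was estimated, so whether these readings stood above background, and whether a change could have been seen, is not known. TSC1 scores, at 17.7 to 21.1, were above the median score of the arrays (8.16 to 8.56), so the 12 probe sets were not equally dim.

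**Figure D2:**
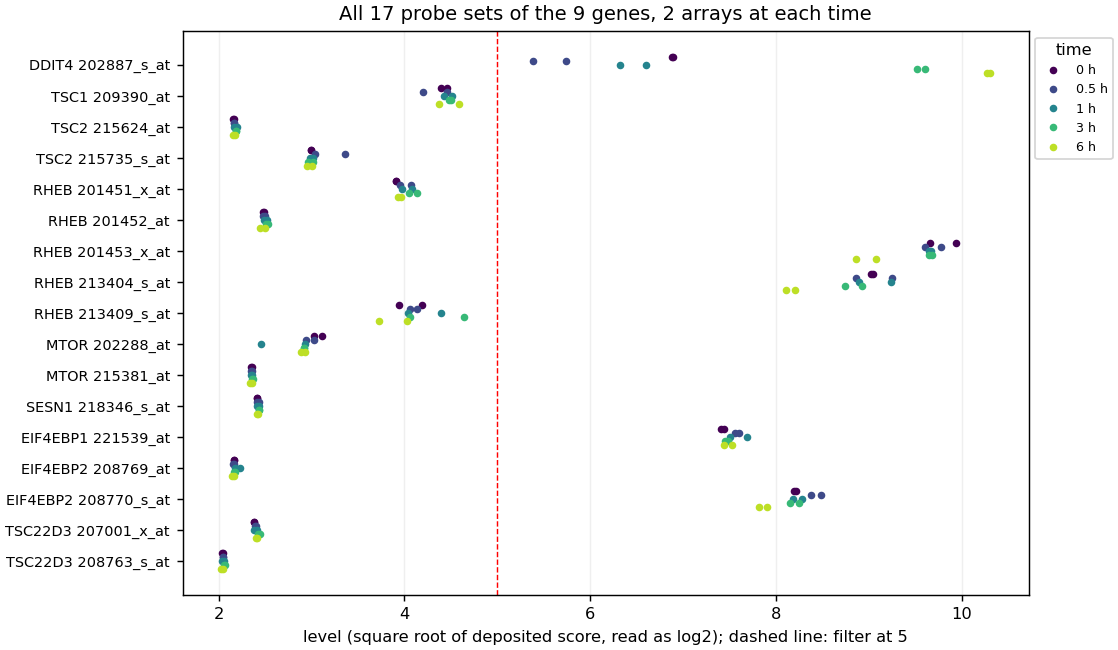
Levels (square root of the deposited score, read as log2) on the horizontal axis for all 17 probe sets of the 9 genes, with 2 points per time and colour giving the time from 0 h to 6 h. The dashed line is the filter at 5; 12 probe sets lie between 2.03 and 4.64, and DDIT4 has the widest spread.

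Other genes of the pathway were taken from 6 lists of 95 genes, of which 70 were on the array and 25 were tested, each by its brightest probe set. The lists were the TSC complex and RHEB partners (0 on the array), the mTOR complexes, amino acid sensing, PI3K and AKT, energy sensing, and the outputs of mTORC1. At 0.5 h 1 of the 25 rose and 4 fell, at 1 h 0 rose and 7 fell, at 3 h 2 rose and 6 fell, and at 6 h 0 rose and 5 fell. Among all tested probe sets 1.92% rose and 15.1% fell at 0.5 h, 4.14% and 24.2% at 1 h, 2.53% and 26.4% at 3 h, and 4.07% and 21.6% at 6 h. The median change of the 25 was -0.01 at 3 h and -0.21 at 6 h, beside -0.15 and -0.14 over all tested probe sets. With equal array medians 3 rose and 5 fell at 0.5 h, 9 rose and 6 fell at 1 h, 7 rose and 5 fell at 3 h, and 2 rose and 5 fell at 6 h, beside 6.9% and 15.3%, 32.5% and 19.5%, 23.1% and 17.8%, and 14.3% and 14.1% of all tested probe sets, so the balance of the calls at 1 h and 3 h depends on the scaling.

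Among the mTOR complexes, TTI1, a chaperone for kinases of the MTOR family, fell by 1.08 at 3 h (limma adjusted p = 0.0027) and dropped by 0.72 at 6 h (limma adjusted p = 0.0104), while MLST8 and TTI2 were called at neither time. Of 10 amino acid sensing genes, SEH1L, a subunit shared by the GATOR2 complex and the nuclear pore, fell by 1.81 at 3 h (limma adjusted p = 0.0142) and dropped by 2.65 at 6 h relative to 0 h (limma adjusted p = 0.00386), with a mean of 5.00 at 6 h against 7.65 at 0 h. SLC7A5, the large neutral amino acid transporter, rose by 0.65 at 3 h (limma adjusted p = 0.0254). It did not stay up: it changed by -0.93 from 3 h to 6 h (limma adjusted p = 0.0203). At 6 h it differed from 0 h by -0.27, without a call. Its partner chain SLC3A2 rose by 0.47 at 0.5 h (limma adjusted p = 0.0221), a gene named after its value was seen. That call was lost without any 1 of the 4 arrays compared, with no filter and with either covariate. In the PI3K and AKT list, the regulatory subunit PIK3R3 fell by 1.31 at 3 h (limma adjusted p = 0.0184) and the phosphatase subunit PPP2CA fell by 0.76 (limma adjusted p = 0.0293). At 1 h, when DDIT4 stood below 0 h, TTI1 (-0.58), SEH1L (-1.75), PIK3R3 (-1.04) and PPP2CA (-1.61) were already called lower. PPP2CA was also called lower at 0.5 h (-1.12), and its change from 0 h was deepest at 1 h. Neither of the 2 energy sensing genes tested, CAMKK2 and PRKAB1, was called at any time in this fit. Equal array medians called PRKAB1 higher at 1 h (0.48, limma adjusted p = 0.0214), as they did 32.5% of all tested probe sets.

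The 7 tested outputs of mTORC1 were mostly translation factors. EIF4E, the cap-binding protein that the EIF4EBP proteins hold, fell by 0.98 at 3 h (limma adjusted p = 0.0186), and EIF4B, a cofactor of the helicase that unwinds messenger RNA, fell by 0.66 at 3 h (limma adjusted p = 0.0116) and dropped by 0.72 at 6 h (limma adjusted p = 0.00898). Their other probe sets were not called at these times: that of EIF4E changed by -0.92 at 3 h (limma adjusted p = 0.0567), and the 2 of EIF4B by -0.58 and -1.10 at 3 h and by -0.41 and -0.003 at 6 h. At 0.5 h and 1 h, before DDIT4 stood above 0 h, every tested probe set of EIF4E and EIF4B was called lower. The brightest changed by -1.30 and -1.22 in EIF4E and by -0.76 and -0.68 in EIF4B. EIF4G1, the scaffold of the cap complex, fell by 0.79 at 6 h (limma adjusted p = 0.00464; its other probe set changed by -0.29 and was not called), and LARP1, which represses messages of ribosomal proteins, fell by 0.83 (limma adjusted p = 0.0151). ATG13, part of the autophagy-starting kinase complex that mTORC1 inhibits, rose by 0.93 at 3 h (limma adjusted p = 0.00901), with 0.36 and no call in its other probe set. RPS6, the ribosomal protein phosphorylated below mTORC1 and named after its values were seen, fell by 0.76 at 0.5 h (209134_s_at, limma adjusted p = 0.00945) and dropped by 0.99 at 1 h (limma adjusted p = 0.00159), and stood 0.08 above 0 h at 6 h. Its other tested probe sets were also called lower at 0.5 h and 1 h, and changed by 0.34 and 0.31 at 6 h without a call. RPS6KB1, the kinase that phosphorylates RPS6, stayed below the filter at 2.53 to 2.77.

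**Figure D3:**
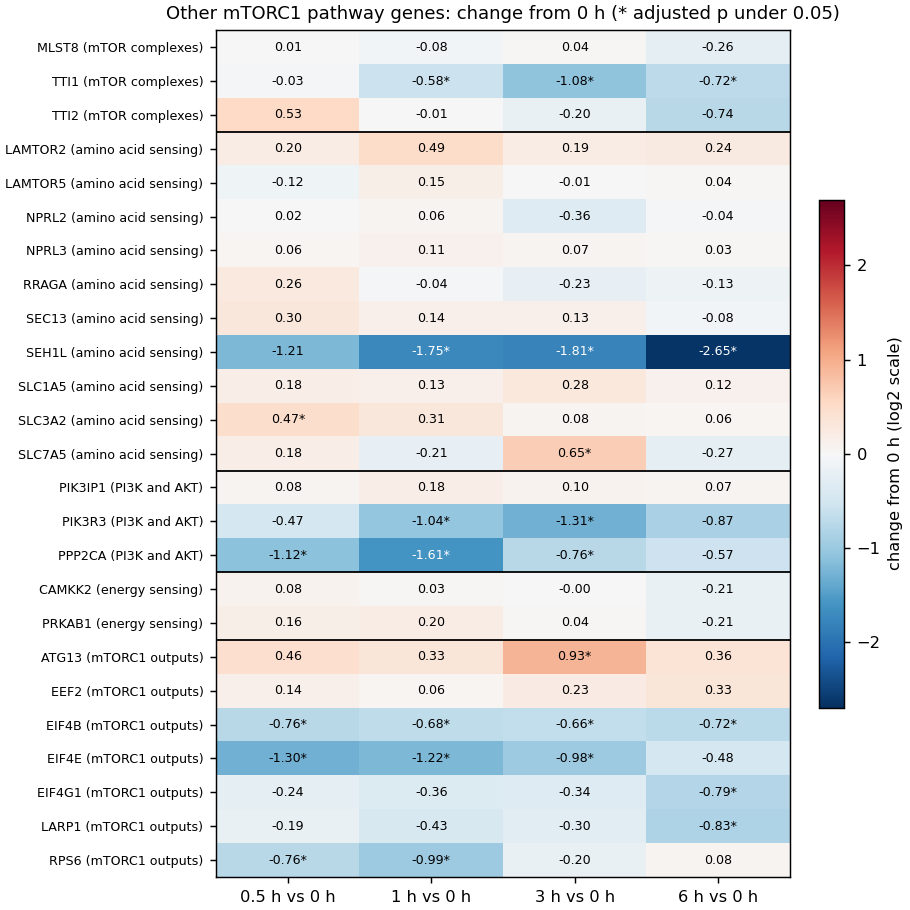
Change from 0 h (log2 scale, colour and number) of the 25 tested genes of the mTORC1 pathway lists, in rows grouped by list, at 0.5 h, 1 h, 3 h and 6 h in columns. Stars mark limma adjusted p under 0.05; SEH1L has the deepest fall, -2.65 at 6 h.

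All 14 of the named list genes' calls at 3 h and all 9 at 6 h were lost with the 18S level or the spike-in level as a covariate. Both levels moved with time, so such a fit widens the SE and cannot separate the control signals from time. For TTI1 at 3 h the change was -1.12 (SE 0.311) with the spike-in level and -1.22 (SE 0.283) with 18S, against -1.08 (SE 0.147). For PIK3R3 at 3 h it was -0.36 and -0.38, against -1.31. Of the pathway's 8 calls at 3 h, 1 was left without replicate 1 of 0 h, 5 without replicate 2 of 0 h and 2 without replicate 2 of 3 h. Of its 5 calls at 6 h, 3 were left without replicate 1 of 0 h and 2 without replicate 1 of 6 h. The 7 calls at 1 h came to 2 without replicate 1 of 0 h or replicate 2 of 1 h, and the 5 at 0.5 h to 0 without replicate 1 of 0 h or replicate 2 of 0.5 h. By gene, SLC7A5, SEH1L, PIK3R3, PPP2CA, ATG13, EIF4B and EIF4E lost their calls at 3 h without replicate 1 of 0 h, and all of these but SLC7A5 also without replicate 2 of 3 h. SLC7A5, PPP2CA and EIF4E further lost theirs at 3 h without replicate 2 of 0 h, and SLC7A5 without replicate 1 of 3 h. At 6 h EIF4B and LARP1 lost their calls without replicate 1 of 0 h or of 6 h, and TTI1 without replicate 2 of 0 h or replicate 1 of 6 h. TTI1 at 3 h and SEH1L and EIF4G1 at 6 h were called without each array in turn. EIF4B at 3 h was also lost with equal array medians.

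Those partners of DDIT4 that passed the test at 3 h and 6 h fell, while DDIT4 stood above 0 h. The YWHA proteins bind phosphorylated partners, and in work on TSC2 DDIT4 was described as drawing them away from it. TXNIP, a thioredoxin-binding protein that DDIT4 is known to bind, is also an inducible regulator of glucose uptake. Of 8 tested genes on the list of relatives and partners 0 rose and 6 fell at 3 h, and 0 rose and 5 fell at 6 h, beside 26.4% and 21.6% of all tested probe sets that fell. With equal array medians 5 fell at 3 h and 4 at 6 h. YWHAB fell by 1.31 at 3 h (limma adjusted p = 0.00295) and dropped by 0.99 at 6 h (limma adjusted p = 0.00756), YWHAQ fell by 0.82 at 3 h and dropped by 0.61 at 6 h (limma adjusted p = 0.00294 and 0.00778), and YWHAZ fell by 0.98 at 3 h (limma adjusted p = 0.00194). Another YWHAB probe set, 208743_s_at, changed by -0.40 at 3 h and -0.27 at 6 h with no call. YWHAQ and YWHAZ were already called lower at 0.5 h and 1 h, and YWHAB at 1 h, times at which DDIT4 stood below 0 h. At 3 h the 3 calls named held without each array in turn, whereas at 6 h YWHAB lost its call without replicate 1 of 0 h or replicate 1 of 6 h and YWHAQ without replicate 1 of 0 h. TXNIP (201009_s_at) rose by 0.75 at 0.5 h (limma adjusted p = 0.0466), then fell by 1.05 at 3 h (limma adjusted p = 0.0091) and dropped by 1.07 at 6 h (limma adjusted p = 0.00922), opposite in sign to DDIT4 at each of these times. The TXNIP calls at 3 h and 6 h were lost without replicate 2 of 0 h, and also without replicate 2 of 3 h at 3 h and replicate 1 of 6 h at 6 h. A second TXNIP probe set, 201010_s_at, changed by 0.60 at 0.5 h without a call and fell by 2.24 at 3 h and dropped by 1.79 at 6 h (limma adjusted p = 0.00426 and 0.0100). At 3 h and 6 h both TXNIP probe sets read below the filter, 4.62 and 4.60 in 201009_s_at and 3.68 and 4.14 in 201010_s_at. The sizes of the TXNIP falls rest on those readings, which may be near background. With readings below 5 set to 5, the change of 201009_s_at was -0.67 at both times (limma adjusted p = 0.0496 at 3 h and 0.0512 at 6 h).

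Calls of factors known to switch on DDIT4 depended on the scaling. Of 9 such genes on the array 3 were tested, the stress factor ATF4, the CCAAT-binding CEBPB and the ETS factor ELK1, and 0 were called at any time on the levels as deposited. The lowest limma adjusted p among these 3 was that of ATF4 at 1 h (change 0.31, limma adjusted p = 0.0779). Of all tested probe sets 17% (0.5 h), 28.4% (1 h), 28.9% (3 h) and 25.7% (6 h) were called. With equal array medians ATF4 was called higher at 1 h (0.60, limma adjusted p = 0.0066), ELK1 at 0.5 h, 1 h and 3 h (0.46, 0.47 and 0.48, limma adjusted p = 0.0365, 0.0181 and 0.0219) and CEBPB at 6 h (0.46, limma adjusted p = 0.0424). That setting called 6.9% (0.5 h), 32.5% (1 h), 23.1% (3 h) and 14.3% (6 h) of all tested probe sets higher. HIF1A, whose protein is set mainly by its breakdown and not by its transcript, read 3.34 to 3.75, below the filter. NR3C1, the glucocorticoid receptor, read 2.15 to 3.34 over its 4 probe sets, and FKBP5, a classical glucocorticoid target, read 2.98 to 4.03, also below it. Of 4 tested genes known to be induced by glucocorticoids 0 rose and 2 fell at each of 3 h and 6 h, when 26.4% and 21.6% of all tested probe sets fell. Beside TXNIP these were ANXA1, a phospholipid-binding protein, which fell by 1.98 at 3 h (limma adjusted p = 0.00473), and the chemokine receptor CXCR4, which fell by 0.50 at 6 h (limma adjusted p = 0.0375). ANXA1 was already lower by 1.46 at 0.5 h and by 2.31 at 1 h (limma adjusted p = 0.0210 and 0.00179). From 3 h to 6 h it rose by 2.09 (limma adjusted p = 0.00978), to 8.07 against 7.96 at 0 h. The CXCR4 call was lost with equal array medians and without any 1 of 5 of the arrays, and its other 2 probe sets changed by -0.28 and -0.30 with no call. TSC22D1, the 1 tested relative of TSC22D3, fell by 1.55 at 3 h (limma adjusted p = 0.00409). At 3 h the calls of ANXA1 and TSC22D1 held without each array in turn.

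The genes whose course over the 10 arrays was most like that of DDIT4 were sought among 849 probe sets of 701 genes that had 1 symbol and time means spanning at least 1. The measure was Pearson's r with DDIT4, whose median over the 849 was -0.01, and the arrays share their times, so the values are a description. GNA15, the alpha subunit of a haematopoietic G protein, had an r of 0.95, with changes from 0 h of 1.60 at 3 h and 1.97 at 6 h and no dip at 0.5 h (0.17). The ribosomal protein RPL14 came next with 0.94 and the AP-1 subunit JUND with 0.91, followed by the glucose transporter SLC2A3 and the membrane protein TMEM59 with 0.89 each. Each gene was placed by its probe set with the highest r, or the lowest for the opposite courses. The other tested RPL14 probe sets had 0.73 and 0.84. PFKFB3, which makes the activator of phosphofructokinase, had 0.87, and the lectin-like receptor CLEC2B and the zinc finger factor KLF10 had 0.85 each.

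At 0.5 h KLF10 stood at 3.71, below the filter, against 5.68 at 0 h (change -1.97), and TMEM59 changed by -0.57. CLEC2B read below the filter at both times (3.71 at 0.5 h and 4.69 at 0 h), so no change is given for it there. GNA15, JUND and PFKFB3 had changes of 0.17 to 0.33. At 6 h all 8 were above 0 h, by 0.77 (TMEM59) to 1.97 (GNA15), less than the 3.40 of DDIT4. SLC2A3 stood at 5.57 at 6 h, against 3.90 at 0 h, below the filter. The courses most opposite to DDIT4 were those of the RNA-binding protein HNRNPA0 and the bromodomain protein BRD2 with -0.97 each, the receptor phosphatase PTPRO with -0.96 and PMAIP1, a BCL2-family death protein, with -0.95. The second HNRNPA0 probe set had an r of 0.56, opposite in sign, and the second BRD2 probe set -0.92. Within the 9 genes, r with DDIT4 was -0.67 and -0.77 for the RHEB probe sets, -0.82 for EIF4EBP2 and -0.43 for EIF4EBP1.

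**Figure D4:**
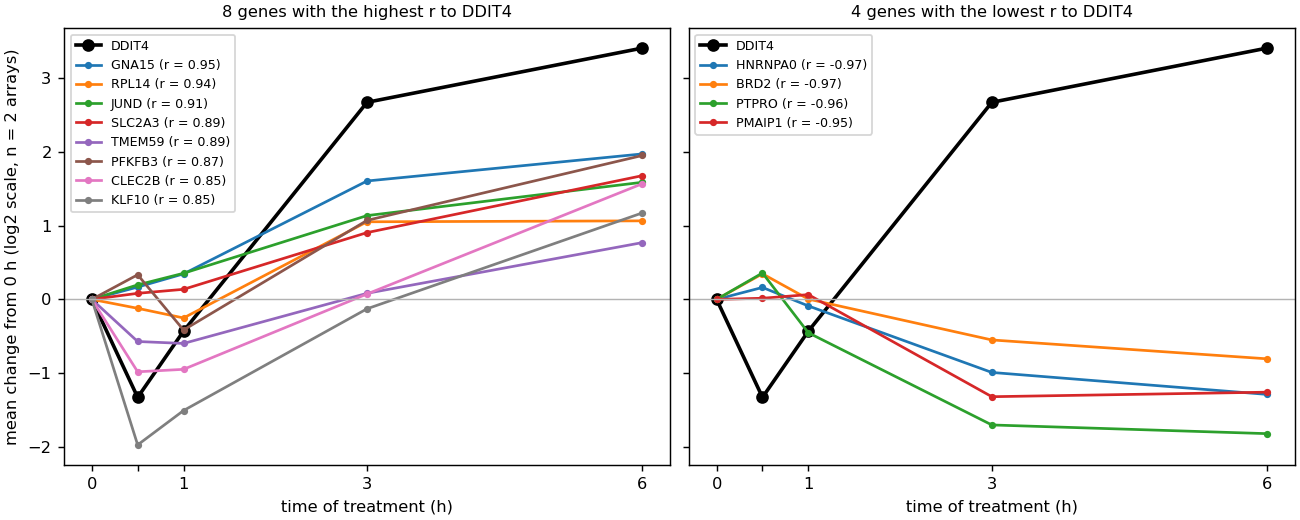
Mean change from 0 h (log2 scale, n = 2 arrays per time) against time of treatment in hours for DDIT4 (thick black) and the 8 genes with the highest r to it (left) and the 4 with the lowest (right). All 8 on the left are above 0 at 6 h, and KLF10 falls furthest at 0.5 h (-1.97), to a reading below the filter.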

How the data were processed

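RNA of 10 MOLT-4 samples was read on Affymetrix human arrays, 2 replicates at each of 5 times. The authors deposited 1 score for each probe set; GCRMA is the tool that the submitters' processing notes name, and its version, its scale and any later step are not given in the sources used here. The scores ran up to 238.1. Their square roots, which reached 15.43, were read as log2 levels, a choice made from the data. The 9 genes, the lists and the tests were chosen with earlier results of these data known.

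Genes were named through the platform annotation with symbols updated from RefSeq. A single symbol was given for 19071 probe sets (19059 of them found in RefSeq), several for 1043 and none for 2169. Tests left out the 68 controls, and probe sets with at least 2 arrays at level 5 (score 25) were tested. Python 3.11.15 and limma 3.58.1 in R 4.3.3 were used (lmFit and eBayes, time as factor, all 10 arrays, 5 residual degrees of freedom, prior SD 0.139, Benjamini-Hochberg adjustment within each comparison), after the fit had been tested on simulated data. A gene of a list was read by its brightest probe set. Besides the 9 genes, the named genes were up to 3 called genes per list, direction and time at 3 h or 6 h, ranked by test statistic, the 6 genes HIF1A, TXNIP, EIF4EBP1, RPS6KB1, NR3C1 and FKBP5, and the 8 most and 4 least like DDIT4. Alternatives changed the scale, normalization, filter, floor, covariates, replicate block and arrays. Replicate numbers do not pair the samples. Intervals cover the spread between arrays only, and the number of arrays limits the precision.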

Additional observations from a re-analysis of the deposited data

Results flagged for a closer look

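DDIT4 was singled out because every array of 0.5 h and 1 h was below the 0 h mean and every array of 3 h and 6 h was above it. The change at 3 h exceeded that at 0.5 h by 4.00 and that at 1 h by 3.10 on the log2 scale. The change at 6 h exceeded that at 0.5 h by 4.73 and that at 1 h by 3.83. These differences were not tested, because DDIT4 was chosen for its rise.

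RHEB was singled out because its change from 0 h differed between 6 h and 3 h in both tested probe sets. The difference was -0.69 in 201453_x_at (limma adjusted p = 0.0205) and -0.67 in 213404_s_at (limma adjusted p = 0.0475). Among all tested probe sets 2.08% were called lower at 6 h than at 3 h. Neither call was left without replicate 1 or 2 of 3 h or replicate 1 of 6 h.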

How the results depend on the processing

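DDIT4 kept its direction at every time under all settings compared for it. Fits with the 18S or the spike-in level as a covariate are not given for DDIT4. Its changes at 0.5 h, 1 h, 3 h and 6 h with log2 of the score were -0.62, -0.19, 0.95 and 1.16, and in untransformed scores -16.5, -5.72, 43.9 and 58.5, which are other units. They were -1.16, -0.15, 2.96 and 3.64 after quantile normalization again, and at 1 h, 3 h and 6 h -0.14, 2.98 and 3.65 with equal array medians. Without 1 array each they ran from -1.50 to -1.15, -0.57 to -0.29, 2.63 to 2.71 and 3.39 to 3.42. Of the 4 other tested probe sets, equal array medians and quantile normalization each gave 1 call at 1 h and 1 at 3 h, against 0. At 6 h quantile normalization called EIF4EBP1 higher and lost EIF4EBP2, giving 1 higher and 2 lower against 0 and 3. At 6 h 0 of the 3 calls were left with either covariate (unadjusted p under 0.05 in 2 for spike-ins and 0 for 18S), and 1 to 3 without 1 array, the lowest without replicate 1 of 0 h. Of the 2 calls at 6 h against 3 h, log2 scores, the floor and each covariate left 1, no filter left 0, and leaving out 1 array left 0 to 2, with 0 without replicate 1 or 2 of 3 h or replicate 1 of 6 h. For the pathway, equal array medians gave 8 calls at 0.5 h and 15 at 1 h, and quantile normalization 13 at 1 h. No filter, with more probe sets to adjust over, gave 1, 3, 1 and 3 at the 4 times, and the stricter filter at level 7 gave 5 at 3 h. The spike-in covariate gave 1, 4, 0 and 0, and the 18S covariate 0 at each time (unadjusted p under 0.05 in 6, 5, 2 and 3). Without 1 array the pathway counts ran 0 to 6, 2 to 7, 1 to 8 and 2 to 7. Apart from fewer probe sets or arrays, the cause of these shifts was not tested. Both covariates moved with time, so their fits cannot separate the control signals from time. No called change turned its sign, but uncalled ones did: with equal array medians RHEB 201453_x_at had 0.15 at 1 h and 0.18 at 3 h against -0.14 at both times, and 213404_s_at had 0.11 at 3 h against -0.20. Replicate numbers did not pair the samples: deviations of like-numbered arrays correlated at -0.23 to 0.15, over 0.1 in 2 of 10 pairs of times. With the replicate block the member count at 6 h stayed 3, with EIF4EBP2 at limma adjusted p = 0.0473 and RHEB 201453_x_at at 0.00656, and of the named list genes CXCR4 lost its call. Dim probe sets limit what can be seen of TSC1, TSC2, MTOR, SESN1 and TSC22D3.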
